A study of Mus musculus with 6 samples.

Results

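The 10 genes of the unfolded protein response described here were measured in the distal colon of mice: Ern2, Xbp1, Hspa5, Hyou1, Creld2, Sdf2l1, Dnajb9, Herpud1, Atf4 and Ddit3. They were chosen by symbol, as the rows whose Ensembl identifier maps to those names in GENCODE M21, and all 10 were found among the 20533 genes measured. Colon RNA was sequenced from male mice, wild-type C57BL/6, that were 7 weeks old, with tissue taken on day 7. Of the 3 groups, the first received 2% dextran sulphate sodium (DSS, a polysaccharide given in the drinking water to provoke colitis) plus montmorillonite powder, an adsorbent clay. The second received 2% DSS alone and the third water, and each group held 2 libraries. Since nothing in the labels states that libraries of the same group stem from different mice, p-values cover only library-to-library spread, which may be technical.

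The unfolded protein response adjusts the endoplasmic reticulum (ER) to its load of unfolded protein. It has 3 branches, named for the membrane sensors IRE1, PERK and ATF6. IRE1 splices the mRNA of the transcription factor XBP1, PERK slows translation by phosphorylating eIF2alpha and thereby raises translation of ATF4, and ATF6 is cut by proteases in the Golgi to release a transcription factor. Their targets include ER chaperones, degradation factors and, under lasting stress, the gene of CHOP (Ddit3). In the gut the response is best known from cells with a heavy secretory load, the mucin-making goblet cells and the antibody-making plasma cells, and IRE1beta, encoded by Ern2, is a form of IRE1 made mainly in mucosal epithelium. Splicing of Xbp1 mRNA and translation of Atf4 cannot be read from gene totals, so the values below are of mRNA level only.

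The promoters of Hspa5, Creld2 and Herpud1 are shown because they hold letters of the sequence elements through which ATF6 and XBP1 are known to act. RefSeq windows on build GRCm38.p6, running from 250 bases before to 50 after the gene start, were searched for 8 of the 10 genes, all but Ern2 and Hyou1. The ER stress response element (ERSE, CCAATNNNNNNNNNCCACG, either strand) was found without mismatch in the windows of Hspa5 and Creld2 and in 0.119% of all 32851 windows. Its second form (ERSE-II, ATTGGNCCACG, either strand) was found in the window of Herpud1 and in 0.0365% of all windows. The element bound by ATF4 with C/EBP factors (TGATGNAA, either strand) was found in the window of Herpud1 and in 3.97% of all windows. With 1 mismatch allowed in its fixed letters, ERSE was also met in Ddit3 and Herpud1, and in 1.5% of all windows. No exact match to any of the 3 elements was met in the windows of Sdf2l1, Dnajb9, Xbp1, Atf4 and Ddit3. The Dnajb9 window (44210019 to 44210318, minus strand) lies wholly inside the GENCODE gene given below. No bases upstream of that GENCODE gene were therefore searched for Dnajb9. ERSE and ERSE-II both end in CCACG, so their matches can overlap. In the sequences below capitals mark the exact matches. They lie at positions -65 to -47 in Hspa5 and -126 to -108 in Creld2, where the element is on the opposite strand. In Herpud1 the ERSE-II lies at -52 to -42, and the ATF4 element at -112 to -105 on the opposite strand, all counted from the RefSeq gene start. For Hspa5 that start is 34772090, which lies inside the GENCODE gene given below (from 34771970), so its match is upstream of the RefSeq start only. A match is a description of the letters and not evidence of binding.
Hspa5 (chr2:34771840-34772139, + strand): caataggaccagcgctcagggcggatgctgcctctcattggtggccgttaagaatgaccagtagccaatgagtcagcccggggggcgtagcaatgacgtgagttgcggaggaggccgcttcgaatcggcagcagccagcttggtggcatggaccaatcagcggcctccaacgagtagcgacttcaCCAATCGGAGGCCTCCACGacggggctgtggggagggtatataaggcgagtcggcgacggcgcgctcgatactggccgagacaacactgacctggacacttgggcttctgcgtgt
Creld2 (chr15:88819396-88819695, + strand): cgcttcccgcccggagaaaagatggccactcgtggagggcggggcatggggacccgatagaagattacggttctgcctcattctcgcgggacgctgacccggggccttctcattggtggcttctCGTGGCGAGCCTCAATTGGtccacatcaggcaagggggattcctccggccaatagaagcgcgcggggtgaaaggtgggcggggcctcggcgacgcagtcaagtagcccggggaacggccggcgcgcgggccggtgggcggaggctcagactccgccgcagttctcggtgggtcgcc
Herpud1 (chr8:94386179-94386478, + strand): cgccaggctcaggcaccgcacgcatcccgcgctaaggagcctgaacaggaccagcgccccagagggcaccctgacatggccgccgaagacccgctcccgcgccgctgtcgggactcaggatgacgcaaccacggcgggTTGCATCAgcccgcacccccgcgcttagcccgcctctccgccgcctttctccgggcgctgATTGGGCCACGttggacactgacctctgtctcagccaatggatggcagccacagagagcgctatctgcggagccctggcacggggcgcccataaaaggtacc

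Values are normalised read counts, in which a size factor for each library divides its reads. The recovered whole reads summed to 3741494 to 21481594 per library, and every one of the 10 genes had reads in every library, from 54 for Ddit3 in water replicate 2 to 21854 for Hspa5 in DSS replicate 1. The DSS libraries were the 2 deepest, at 21481594 and 15212981 reads, while no other library passed 8936826. Depth therefore cannot be told apart from treatment with DSS alone. The DSS plus montmorillonite libraries, also given DSS, had 6395768 and 4494666 reads. The distal colon markers Cdx2, Hoxb13 and Muc2 were detected in all 6 libraries. Hoxb13 had 4000 and 1310 in DSS plus montmorillonite, 960 and 582 in DSS, and 3210 and 3390 in water, so that its level shifted with the groups, and the part of this shift in the results below was not tested. The DSS plus montmorillonite libraries stood apart from each other: summed neutrophil markers were 263.2 (replicate 1) and 13860 (replicate 2), compared with 5101 and 17430 in DSS and 75.83 and 104.6 in water. Of the 14 neutrophil markers 8 were at 0 in at least 1 library. Results that rest on the DSS plus montmorillonite group are therefore given per library.

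Per kilobase of annotated exon, Hspa5 and Xbp1 were the most abundant of the 10 in every group. In water the order by mean level ran Hspa5 (864 ± 112 normalised reads per kb, SD, n = 2), Xbp1 (672 ± 7.35), Atf4 (537 ± 58.5), Herpud1 (460 ± 42.7), Creld2 (256 ± 25.8), Sdf2l1 (253 ± 24.2), Dnajb9 (169 ± 31.5), Ern2 (104 ± 3.97), Hyou1 (74.7 ± 16.3) and Ddit3 (73.1 ± 2.00). In water the libraries of Atf4 and Herpud1 did not overlap in level per kb, whereas those of Creld2 and Sdf2l1 and those of Hyou1 and Ddit3 did. In DSS Ern2 was the lowest of the 10, at 36.3 ± 19.7 per kb. In DSS plus montmorillonite Xbp1 (1020 ± 406) and Hspa5 (1010 ± 136) overlapped, and Herpud1 (758 ± 431) came next by its mean.

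**Figure D1:**
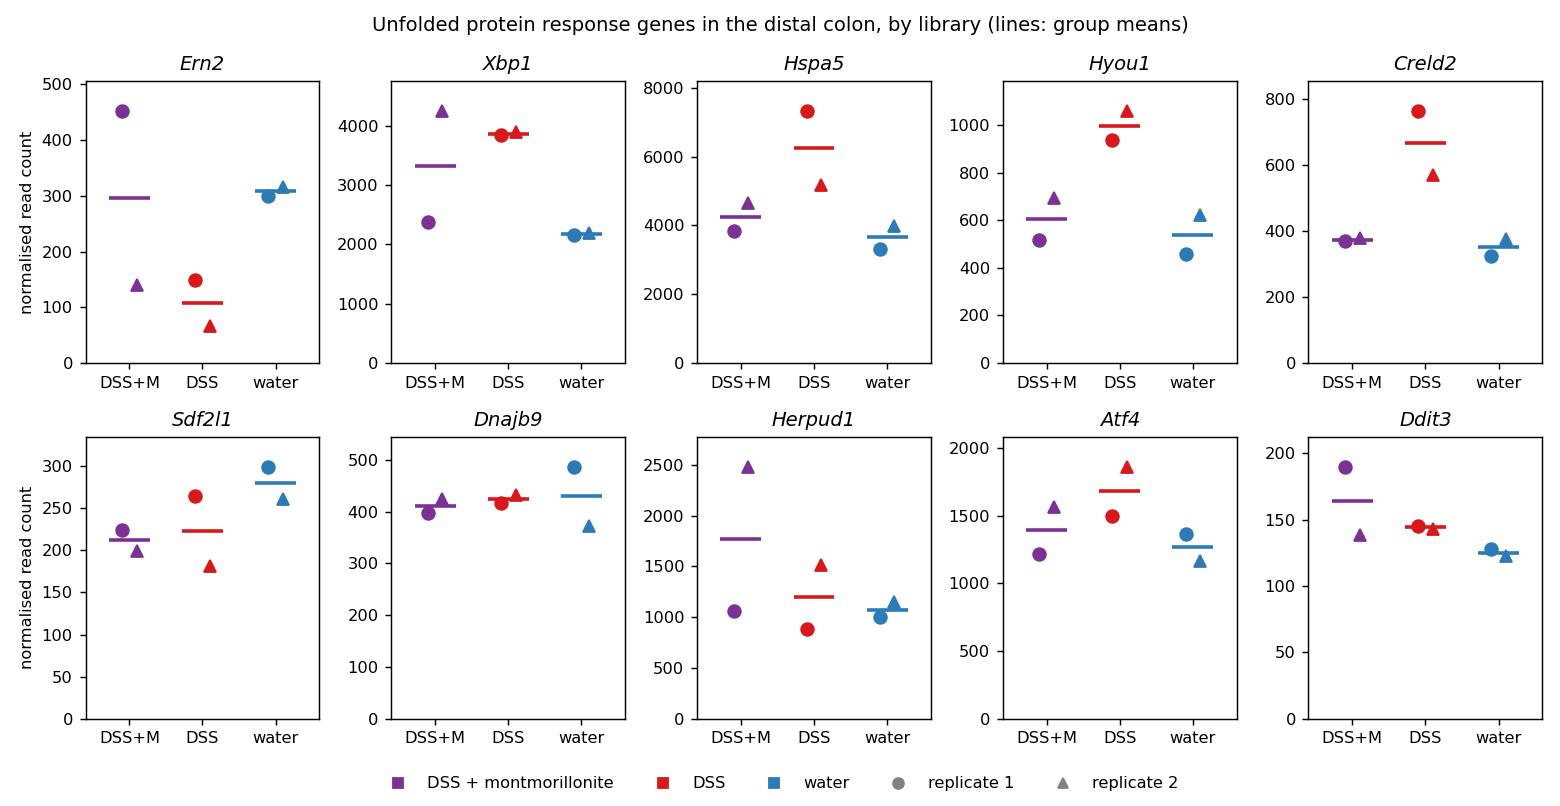
Normalised read counts (vertical axes, from 0) of the 10 genes in each library, with DSS plus montmorillonite, DSS and water from left to right; points are libraries, circles for replicate 1 and triangles for replicate 2, and lines are group means. The 2 DSS points of Xbp1, Hspa5, Hyou1, Creld2, Atf4 and Ddit3 lie above the 2 water points, and those of Ern2 below. The DSS plus montmorillonite libraries part widely for Ern2, Xbp1 and Herpud1.

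The comparison of DSS with water asks how the pathway's transcripts stood in the injured colon. In the limma fit of these 4 libraries Xbp1, Hyou1 and Creld2 rose, by 1.77-fold to 1.88-fold, and Ern2 fell to 0.325 of the water level, while the other 6 genes did not pass. Thus 3 of 10 genes were called higher, where 7.90% of all 20307 genes tested were, and 1 of 10 lower, where 7.18% were. In 6 of the 10 genes both DSS libraries lay above both water libraries (33.9% of all genes) and in 1 of 10 below (28.5% of all genes). In bulk tissue, fewer cells of a type and less RNA per cell cannot be told apart. By edgeR 3 of the 10 were higher (8.20% of all genes) and 0 lower (6.53%), and by DESeq2 4 were higher (10.6%) and 1 lower (9.34%). Scaling by library size alone gave 4 higher (10.8%) and 0 lower (4.35%), and at an unadjusted p under 0.05 limma had 4 higher (17.8%) and 1 lower (14.6%). Every one of the 4 limma calls was lost in the limma fit of all 6 libraries, which called 0% of genes (adjusted p from 0.141 to 0.190) and when any 1 of the 4 libraries was left out (0.0566 to 0.284).

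Of the sensors, Ern2 (ENSMUSG00000030866.8, GRCm38 chromosome 7, 122169893 to 122186207) had a normalised read count of 148.7 and 66.15 in DSS, against 299.5 and 316.1 in water. The groups did not overlap, and the DSS libraries differed from each other by more than the water libraries did. The log2 fold change was -1.62 ± 0.40 (SE, limma adjusted p = 0.0471). It also passed in DESeq2 (adjusted p = 0.0039) and, in limma, with a pseudocount of 5 (0.0403) or a mean value of at least 10 (0.0322). It did not pass in edgeR (adjusted p = 0.0511), with TMM scaling (0.0532), with a pseudocount of 0.5 (0.0530) or after scaling by library size alone (0.0685). Goblet cell markers moved with it: 5 of 14 fell (7.18% of all genes) and none rose (7.90%). Their summed level was 37710 and 14950 in DSS, against 76400 and 65190 in water, with no marker at 0. Set against that sum, Ern2 stood at 3.94 and 4.42 per 1000 in DSS and at 3.92 and 4.85 per 1000 in water, so that this ratio overlapped between the groups. General epithelial markers fell as well, 8 of 10 (7.18% of all genes). The ubiquitous sensor gene Ern1 had 435 and 587 in DSS, against 395 and 371 in water, so that the ratio of Ern2 to Ern1 was 0.342 and 0.113 in DSS and 0.757 and 0.853 in water.

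Xbp1 (ENSMUSG00000020484.18, chromosome 11, 5520659 to 5525893), the transcription factor gene downstream of IRE1 and a requirement of plasma cell secretion, had 3838 and 3888 in DSS, against 2165 and 2199 in water. Its libraries agreed closely within each group. The log2 fold change was 0.82 ± 0.15 (SE, limma adjusted p = 0.0226), between 0.81 and 0.83 whichever of the 4 libraries was left out. Plasma cell markers were higher beside it: 8 of 12 rose (7.90% of all genes) and none fell (7.18%). Their summed level was 169500 and 152600 in DSS, against 39260 and 37950 in water. Igha and Jchain made up nearly all of that sum. Igha had 123000 and 120000 in DSS, against 23700 and 25800 in water, and Jchain 40300 and 24400, against 13000 and 9410. No plasma cell marker was at 0 in any library. Xbp1 per 1000 of that sum was 22.6 and 25.5 in DSS, against 55.2 and 57.9 in water. The part of these cells in the level of Xbp1 was not tested.

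Among the ER chaperones, 3 genes stood higher in both DSS libraries. Hspa5 (ENSMUSG00000026864.13, chromosome 2, 34771970 to 34777547), which encodes BiP, the main Hsp70 of the ER, had 7321 and 5178 in DSS, against 3319 and 3987 in water. With a log2 fold change of 0.76 ± 0.23 it did not pass in limma (adjusted p = 0.0767) or edgeR (0.0637), and it did in DESeq2 (0.0191). Hyou1 (ENSMUSG00000032115.14, chromosome 9, 44379490 to 44392369), a large Hsp70-like chaperone and exchange factor of BiP, had 936.3 and 1058 in DSS, against 456.9 and 623.1 in water. It rose by 0.90 ± 0.21 on the log2 scale (SE, limma adjusted p = 0.0415). Creld2 (ENSMUSG00000023272.3, chromosome 15, 88819646 to 88826683), an ER-resident protein induced by ER stress, had 763.1 and 570.0 in DSS, against 325.4 and 375.2 in water. It rose by 0.91 ± 0.22 (limma adjusted p = 0.0420). Hspa5 and Creld2 were higher in DSS replicate 1 than in replicate 2, whereas Hyou1 was not. The plasma cell sums given for Xbp1 differed in the same direction, and their part in the chaperone values was not tested.

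Sdf2l1 (ENSMUSG00000022769.7, chromosome 16, 17130138 to 17132383), which helps BiP hold unfolded clients, did not share this difference: it had 265.0 and 181.7 in DSS, against 299.5 and 261.5 in water, and the groups overlapped. Its log2 fold change was -0.35 ± 0.26 (limma adjusted p = 0.395). Dnajb9 (ENSMUSG00000014905.4, chromosome 12, 44205559 to 44210326), the ERdj4 co-chaperone gene that in other systems is among the most XBP1-dependent targets, had 415.7 and 431.9 in DSS, between the 486.6 and 373.0 of water. Its log2 fold change was -0.01 ± 0.20, and it turned to 0.23 with scaling by library size alone. Herpud1 (ENSMUSG00000031770.16, chromosome 8, 94386438 to 94395377), a membrane component of ER-associated degradation, had 878.4 and 1511 in DSS, on either side of the 1003 and 1144 of water (0.10 ± 0.28 on the log2 scale). For Dnajb9 the difference was thus smaller than the spread between the water libraries, and for Herpud1 smaller than that between the DSS libraries.

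In the PERK branch, Atf4 (ENSMUSG00000042406.7, chromosome 15, 80255184 to 80257541), its translationally controlled transcription factor, had 1499 and 1862 in DSS, against 1364 and 1169 in water. Ddit3 (ENSMUSG00000025408.15, chromosome 10, 127290774 to 127296288), the gene of CHOP, had 145.4 and 143.3 in DSS, against 127.7 and 122.8 in water. Both genes were without overlap between the groups, yet neither passed, with log2 fold changes of 0.40 ± 0.19 and 0.20 ± 0.23 (limma adjusted p = 0.199 and 0.588). The ratio of Ddit3 to Atf4 was 0.0970 and 0.0770 in DSS and 0.0936 and 0.105 in water, which overlapped. Ddit3 shares 68 bases with Mars on the opposite strand, and Herpud1 shares 535 with the antisense gene Gm15890 (at most 10.9 in any library). Mars stood above Ddit3 in every library, with 382 and 450 in DSS, against 249 and 332 in water. No source used here states whether strand was used in counting, so reads in those bases cannot be assigned.

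**Figure D2:**
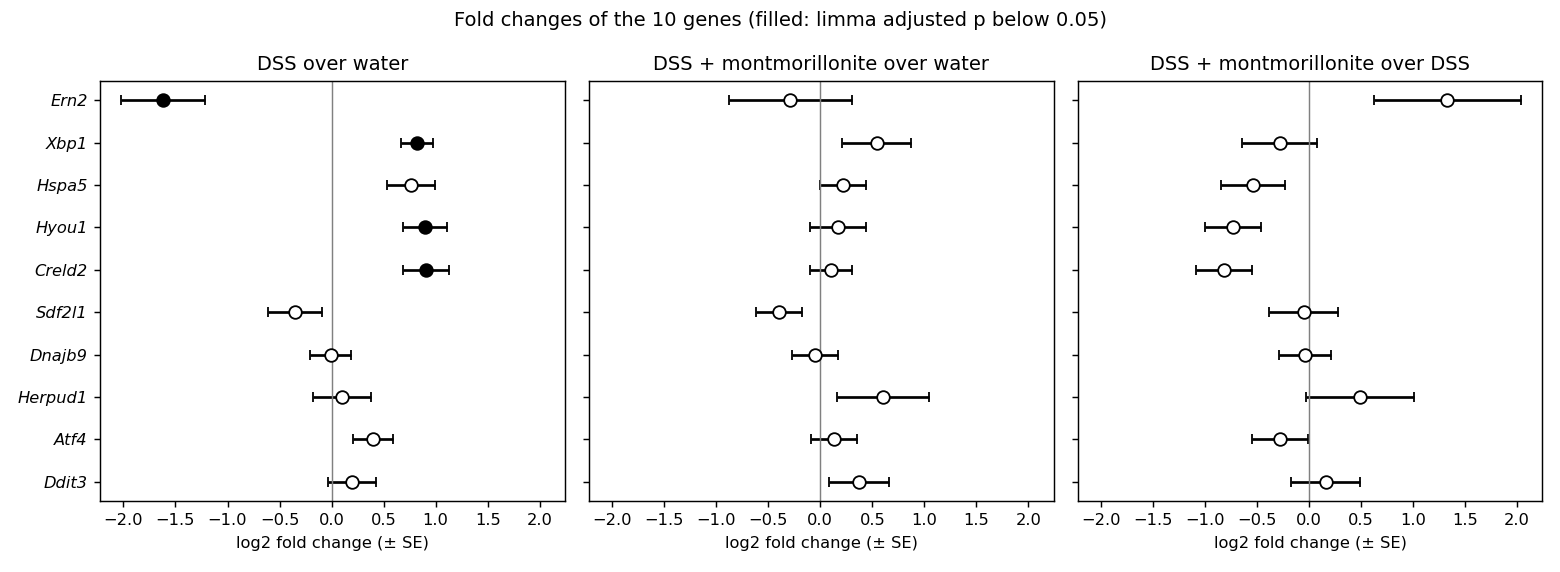
Log2 fold changes (horizontal axes, the first-named group over the second) of the 10 genes in the 3 comparisons, with bars for the standard error from the limma fit of the 4 libraries; filled points have an adjusted p below 0.05. Filled points appear in DSS over water only, for Ern2 (-1.62), Xbp1 (0.82), Hyou1 (0.90) and Creld2 (0.91).

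Wider lists of the pathway, written from textbook knowledge, held 136 further genes that were tested in DSS against water. Of these 12 rose and 5 fell, beside 7.90% and 7.18% of all genes, with a median log2 fold change of 0.12, next to 0.10 over all genes. The PERK and ATF4 list had 6 of 33 genes higher, 3 lower and a median of 0.45, the highest median of the 8 lists. Slc7a11, the cystine transporter subunit, had 329 and 487 in DSS, against 42.2 and 36.4 in water (9.99-fold, limma adjusted p = 0.00557). Cebpb, a transcription factor that is also an inflammatory response gene, had 132 and 196 in DSS, against 21.1 and 20.5 in water (7.42-fold, adjusted p = 0.00939). The other members called, named after their values were seen, included the amino acid and one-carbon enzymes Asns (2.37-fold), Psat1 (2.62-fold) and Mthfd2 (2.54-fold) and the stress-induced Nupr1 (2.56-fold). Atf3, which is induced by ATF4 under stress, fell to 0.322 of water, and Cebpg and Wars fell to 0.608 and 0.535.

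In the other lists few genes passed, and the same 7.90% higher and 7.18% lower over all genes stand beside each count. Of 24 lumenal chaperones 3 rose and none fell, 2 of the 3 being Hyou1 and Creld2. The third, Fkbp14, a prolyl isomerase that acts on collagen, had 159 and 151 in DSS, against 71.0 and 66.0 in water (2.24-fold, limma adjusted p = 0.0361), while 5 of 10 fibroblast markers rose. Of 14 disulphide isomerases and oxidases 1 rose, the oxidase gene Ero1lb (2.25-fold). Of 21 degradation genes Derl3, which is also one of the 12 plasma cell markers, rose 5.17-fold to 331 and 303 in DSS, against 51.8 and 70.5 in water, and Rnf5, a ubiquitin ligase, fell to 0.575. Of 30 translocation and vesicle genes 1 rose, the cargo receptor gene Lman1 (1.70-fold), and the list median was 0.00. Of 12 cell death genes 1 rose, Casp12 (1.93-fold). Among the 12 sensors and their proteases Creb3l2 rose (2.51-fold) and, besides Ern2, Creb3l1 fell (0.431 of water); both encode membrane-bound relatives of ATF6. None of the 3 other eIF2alpha kinase genes passed: Eif2ak4 had 168 and 201 in DSS, against 108 and 102 in water (adjusted p = 0.0817), and Eif2ak1 had 477 and 491 in DSS, against 691 and 728 in water (0.0770). No list member was called in the fit of all 6 libraries, which called none of 20307 genes.

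**Figure D3:**
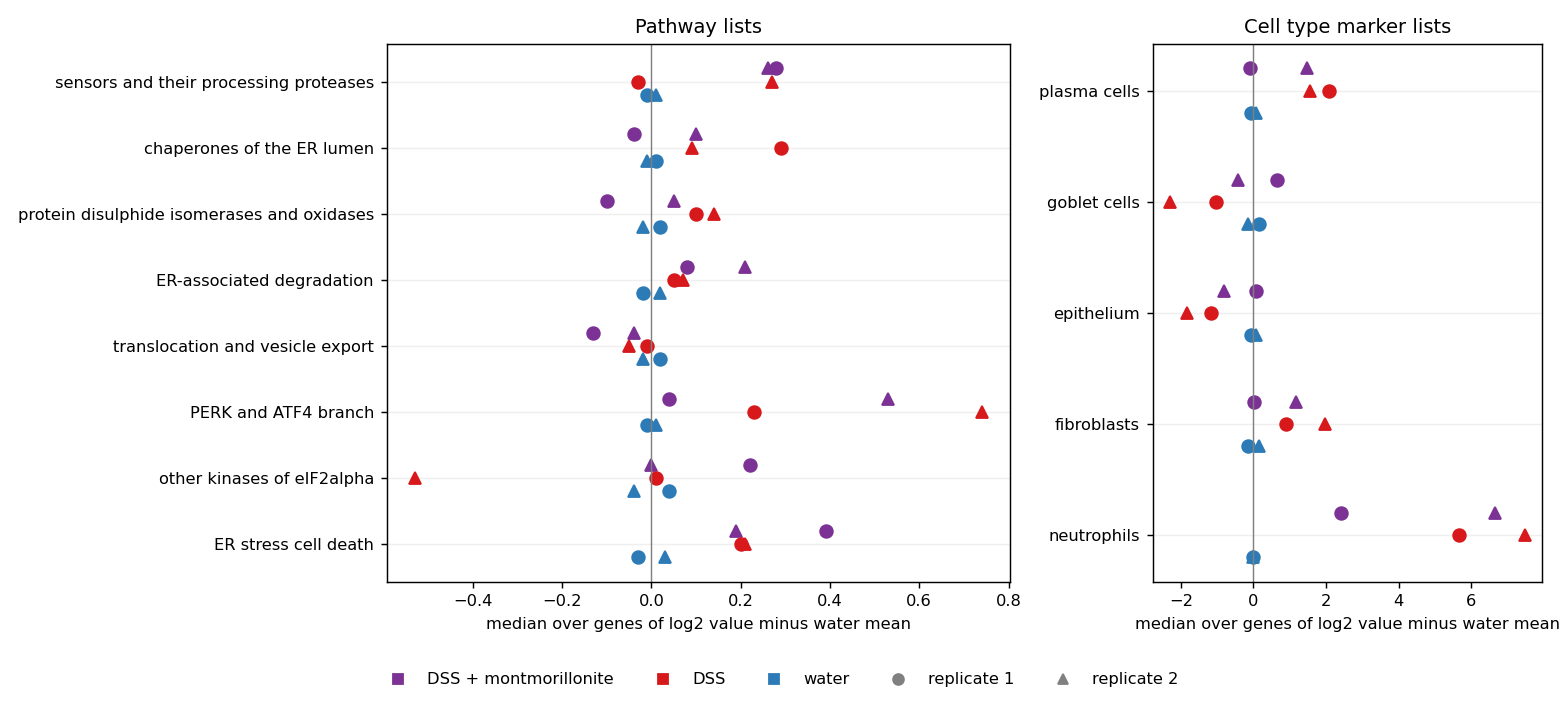
Median over the genes of each list of the log2 value minus the mean log2 value of water (horizontal axes), for pathway lists (left) and cell type markers (right, on a wider scale); points are libraries, in the same colours and shapes as the plot of values by library. The pathway medians stay within -0.53 and 0.74, while neutrophil medians reach 7.48 in DSS replicate 2.

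DSS plus montmorillonite was next set against water, a comparison of colons given both agents with untreated colons. Limma called 0 of the 10 genes (0% of all 20307 genes), edgeR 0 (0%) and DESeq2 0 (0.428% of all genes higher and 0.556% lower, 200 genes in all). At an unadjusted p under 0.05 limma also had 0 of the 10, where 3.78% of all genes were higher and 3.98% lower (1576 genes). In 2 of 10 genes both DSS plus montmorillonite libraries lay above both water libraries (21.5% of all genes) and in 1 of 10 below (19.2%). Creld2 had 369.6 and 377.9 in DSS plus montmorillonite, against 325.4 and 375.2 in water, a log2 fold change of 0.10 ± 0.20 (SE, limma adjusted p = 0.881). Hyou1 had 516.4 and 694.1 in DSS plus montmorillonite, against 456.9 and 623.1 in water (0.17 ± 0.27). Hspa5 had 3852 and 4668 in DSS plus montmorillonite, against 3319 and 3987 in water (0.22 ± 0.22). For all 3 chaperone genes the groups overlapped. Sdf2l1 was the gene without overlap that was lower, at 224.4 and 199.9 in DSS plus montmorillonite, against 299.5 and 261.5 in water (-0.40 ± 0.22, adjusted p = 0.657).

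The genes without overlap that were higher were Xbp1 and Ddit3. Xbp1 had 2383 (replicate 1) and 4246 (replicate 2) with DSS plus montmorillonite, against 2165 and 2199 in water (0.54 ± 0.33 on the log2 scale, limma adjusted p = 0.667). Replicate 2 was thus the highest of the 6 libraries and replicate 1 lay close to water. Summed plasma cell markers reached 189000 in replicate 2 and 45490 in replicate 1, while water held 39260 and 37950. Igha made up most of that sum, with 155000 in replicate 2 and 32200 in replicate 1. The plasma cell marker Mzb1 had 150 and 340 in DSS plus montmorillonite, against 175 and 118 in water. Ddit3 had 189.9 and 138.1 in DSS plus montmorillonite, against 127.7 and 122.8 in water, and its highest library was replicate 1. Herpud1 had 1059 (replicate 1) and 2480 (replicate 2) with DSS plus montmorillonite, against 1003 and 1144 in water, and that replicate 2 was the highest of the 6 libraries. Ern2 parted the libraries the other way, with 451.6 (replicate 1) and 139.9 (replicate 2) under DSS plus montmorillonite, on either side of the 299.5 and 316.1 of water. Summed goblet cell markers were 122500 and 53220 in the same libraries, against 76400 and 65190 in water, yet single markers differed: Muc2, the main gel-forming mucin gene, had 20400 and 17300, against 8740 and 7450 in water. Of the 14 goblet cell markers 5 were above water in both libraries (21.5% of all genes) and 0 below (19.2%). Ern2 per 1000 of the goblet sum was 3.69 and 2.63 in DSS plus montmorillonite, below the 3.92 and 4.85 of water. Atf4 had 1220 and 1563 and Dnajb9 397.0 and 425.2 in DSS plus montmorillonite, against 1364 and 1169 and 486.6 and 373.0 in water, and both genes overlapped. The signs for Ern2, Herpud1, Hyou1 and Atf4 turned without DSS plus montmorillonite replicate 2, at 0.55, -0.02, -0.05 and -0.05, and those for Creld2, Hyou1 and Dnajb9 without water replicate 1, at -0.01, -0.06 and 0.14.

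Of the wider pathway lists 0 of 136 further genes passed in limma in this comparison, with a median of 0.04 next to 0.06 over all genes. Without overlap 39 of the 136 were higher and 22 lower, beside 21.5% and 19.2% of all genes. Among these, Cebpb had 31.6 and 153 in DSS plus montmorillonite, against 21.1 and 20.5 in water (1.70 ± 0.86 on the log2 scale, limma adjusted p = 0.651). Derl3 had 112 and 320 in DSS plus montmorillonite, against 51.8 and 70.5 in water. The PERK gene itself, Eif2ak3, had 423 and 371 in DSS plus montmorillonite, against 255 and 284 in water (0.55 ± 0.21 on the log2 scale, adjusted p = 0.629). Bcl2l11, a pro-apoptotic target of CHOP, had 293 and 411 in DSS plus montmorillonite, against 127 and 166 in water (1.25 ± 0.29, adjusted p = 0.629). Prdx4, a peroxidase of the ER, had 148 and 269 in DSS plus montmorillonite, against 445 and 362 in water (0.499 of water, limma adjusted p = 0.629). Of the 30 translocation and vesicle genes 8 were lower without overlap and 3 higher. Of these, Sec61g had 221 and 184 in DSS plus montmorillonite, against 283 and 318 in water, and Ssr2 1010 and 854, against 1290 and 1280.

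The comparison of DSS plus montmorillonite with DSS asks what the clay changed in colons given DSS. Limma again called 0 of the 10 genes (0% of all genes), edgeR 0 (0%) and DESeq2 0 (0.266% of all genes higher and 0.108% lower, 76 genes in all). At an unadjusted p under 0.05, 2 of the 10 were lower, Creld2 and Hyou1, where 3.20% of all genes were, and 0 higher, where 3.91% were (1444 genes in all). In 3 of 10 genes, Creld2, Hyou1 and Hspa5, both DSS plus montmorillonite libraries lay below both DSS libraries (20.6% of all genes), and in none above (19.4%). Creld2 had 369.6 and 377.9 in DSS plus montmorillonite, against 763.1 and 570.0 in DSS, a log2 fold change of -0.82 ± 0.27 (SE, unadjusted p = 0.0310, limma adjusted p = 0.691). Hyou1 had 516.4 and 694.1 in DSS plus montmorillonite, against 936.3 and 1058 in DSS (-0.73 ± 0.27, unadjusted p = 0.0442). Hspa5 had 3852 and 4668 in DSS plus montmorillonite, against 7321 and 5178 in DSS (-0.54 ± 0.31, adjusted p = 0.717). With 1 library left out, the differences of these 3 chaperone genes ran from -1.03 to -0.29. Since their groups did not overlap, leaving out a library could not turn the sign, so the sign adds nothing further.

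For the other 7 genes the groups overlapped. Xbp1 had 2383 and 4246 in DSS plus montmorillonite, on either side of the 3838 and 3888 of DSS (-0.28 ± 0.36 on the log2 scale, limma adjusted p = 0.830). Ern2 had 451.6 and 139.9 in DSS plus montmorillonite, against 148.7 and 66.15 in DSS, so that replicate 2 lay inside the range of DSS and replicate 1 above it (1.33 ± 0.71, adjusted p = 0.709). Herpud1 had 1059 and 2480 in DSS plus montmorillonite, against 878.4 and 1511 in DSS (0.49 ± 0.52). Atf4 had 1220 and 1563 in DSS plus montmorillonite, against 1499 and 1862 in DSS (-0.28 ± 0.27). The 3 genes Ddit3, Sdf2l1 and Dnajb9 differed by 0.16 ± 0.33, -0.05 ± 0.33 and -0.04 ± 0.25. Epithelial markers stood higher beside these values, with all 10 in both DSS plus montmorillonite libraries above both DSS libraries, and so did 11 of 14 goblet cell markers. The median log2 fold change was -0.85 for fibroblast markers (4 of 10 lower without overlap), -0.77 for plasma cell markers (2 of 12) and -2.13 for neutrophil markers (1 of 14). The libraries differed in this, as median log2 levels relative to water show. Fibroblast markers stood at 0.02 (replicate 1) and 1.18 (replicate 2) in DSS plus montmorillonite, against 0.9 and 1.98 in DSS. Plasma cell markers stood at -0.1 and 1.48, against 2.09 and 1.57, and neutrophil markers at 2.42 and 6.66, against 5.67 and 7.48. Replicate 2 was thus closer to DSS than replicate 1 was. Over all genes 19.4% were higher without overlap and 20.6% lower. Of the wider lists 0 of 136 genes passed in limma, with a median of -0.03 next to -0.07 over all genes. Without overlap 24 of the 136 were higher and 22 lower, beside 19.4% and 20.6% of all genes. Of the 12 sensors and their proteases 5 were higher without overlap and 0 lower, and of 21 degradation genes 4 and 0. Of 14 disulphide isomerases and oxidases 0 were higher without overlap and 4 lower, and of 24 lumenal chaperones 2 and 7. The sensor gene Atf6 had 912 and 918 in DSS plus montmorillonite, against 625 and 777 in DSS (0.39 ± 0.25). Pdia4, a disulphide isomerase that works with BiP, had 741 and 948 in DSS plus montmorillonite, against 1640 and 1230 in DSS (-0.76 ± 0.29). Lman1 had 387 and 569, against 754 and 755 in DSS. Sar1b, of the same list as Lman1, went the other way, with 698 and 531 in DSS plus montmorillonite, against 469 and 384 in DSS. Atf3 had 1460 (replicate 1) and 207 (replicate 2) under DSS plus montmorillonite, against 137 and 112 in DSS, and it was higher in that replicate 1 than in any other library. The part of cell composition in these differences was not tested.

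Over the 6 libraries the 10 genes did not move as 1 group. Of their 45 pairs 22 had a positive Pearson correlation of log2 values, and the median was -0.03. The chaperone genes Hspa5, Hyou1 and Creld2 stood together, with r = 0.95 for Creld2 and Hspa5, 0.87 for Creld2 and Hyou1 and 0.86 for Hspa5 and Hyou1. The ratio of Creld2 to Hspa5 kept between 0.0810 and 0.110 in all 6 libraries. Xbp1 was close to Atf4 (r = 0.83), Hyou1 (0.81) and Hspa5 (0.77), and Ern2 ran against Atf4 (-0.96), Hyou1 (-0.88) and Xbp1 (-0.85). These are descriptions over 6 libraries that share depth, scaling and group, and carry no p.

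Across the 10039 genes averaging 100 or more, the one whose pattern over the 6 libraries was most like that of Xbp1 was Igha, the constant region of immunoglobulin A (r = 0.9996). Igha had 32200 and 155000 in DSS plus montmorillonite, 123000 and 120000 in DSS, and 23700 and 25800 in water. Next came Sod2 (r = 0.9988) and Lifr (0.9980). For Ern2 the nearest were Mansc1 (0.9977), Slc10a5 (0.9977) and Tnfrsf11a (0.9976), for Hspa5 Dnajc8 (0.9976), Gm8995 (0.9852) and Mrps18b (0.9798), and for Ddit3 Usp8 (0.9865), Arid4a (0.9789) and Hars2 (0.9752). With 6 points and 10039 genes, values near 1 arise for many genes, so the order describes these libraries only.

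**Figure D4:**
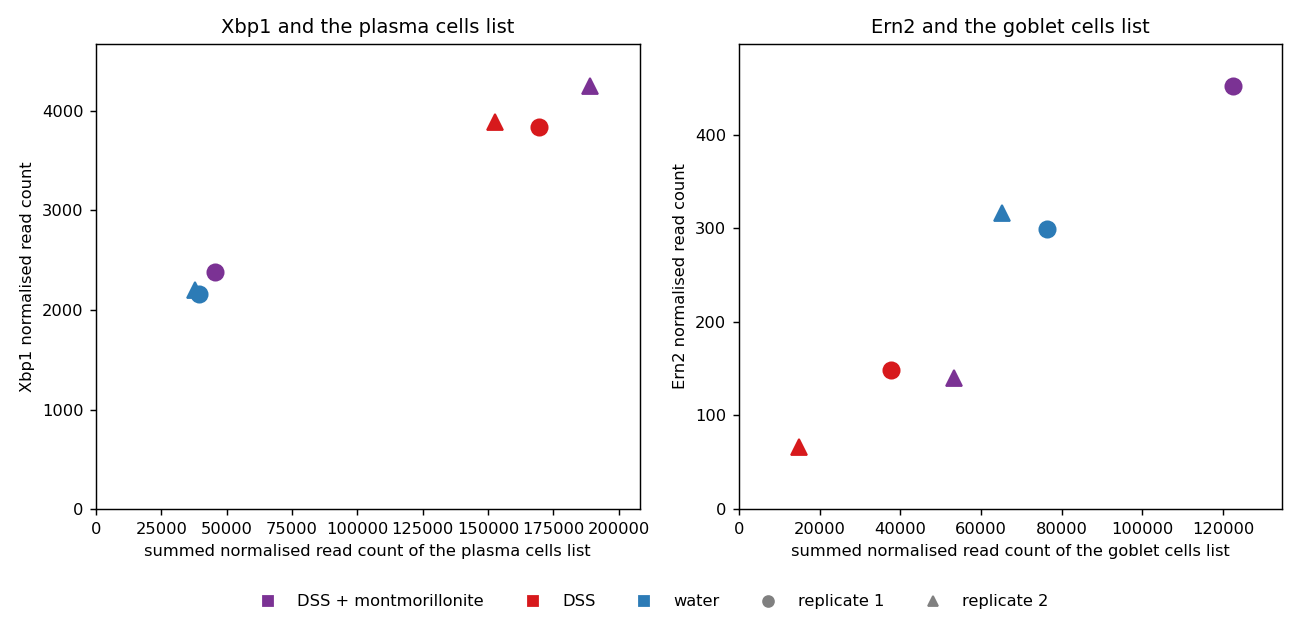
Normalised read count of Xbp1 against the summed normalised read count of 12 plasma cell markers (left), and of Ern2 against that of 14 goblet cell markers (right); each point is a library, in the same colours and shapes as the plot of values by library. On the left the 2 DSS libraries and DSS plus montmorillonite replicate 2 (plasma cell sums of 152600 to 189000) lie apart from the other 3 (37950 to 45490).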

How the data were processed

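RNA-seq of 6 distal colon libraries was used, 2 in each of 3 groups, with groups and replicate numbers from the sample titles. Reads were mapped to mm10 (GRCm38) per the submitters' processing notes; which aligner, counter and normalization were used is not given in the sources used here. A signal for every gene in each library is what the authors deposited. All values (100%) came out as whole multiples of a library's smallest value above 0, within 0.01 read, so the authors' values are read counts divided by 1 factor per library, and whole reads were recovered. All 20533 genes had at least 10 reads in sum, and 20483 matched GENCODE M21, the source of symbols, positions and exon lengths.

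Tests were two-sided and used limma 3.58.1 (R 4.3.3; trended variance) on log2(value + 1) for the 20307 genes averaging 1 or more, fitted for each comparison on its own 4 libraries, with Benjamini-Hochberg adjustment over all genes and a threshold of 0.05. Fold changes are on the log2(value + 1) scale. The fit of all 6 libraries, edgeR 4.0.16 and DESeq2 1.42.0 on the recovered reads, other pseudocounts, filters and scalings, a replicate block and leaving out each library were the alternatives. The 4-library fit, the 10 genes, the lists and the alternatives were chosen with earlier results of these data known, among them that the fit of 6 libraries called no gene. No exact permutation test is given, because with 2 libraries a side its smallest p is 0.333. Named pathway genes are, per list and comparison, up to 2 that passed with the smallest p or, where none passed, up to 2 without overlap with the largest change and a mean value of at least 20, and values of some of them are given; for likeness, the 3 genes with the highest correlation. RefSeq promoter windows on GRCm38.p6 matched 8 of the 10 genes by symbol.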

Additional observations from a re-analysis of the deposited data

How the results depend on the processing

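In DSS against water, 3064 genes passed (1605 higher, 1459 lower), and 4 of the 10 members did. The fit of all 6 libraries called 0 genes (smallest adjusted p = 0.0576, 4662 at an unadjusted p under 0.05) and 0 members. Leaving out 1 library gave 0 to 317 genes and 0 to 0 members: 288 without water replicate 1, 317 without water replicate 2 and 0 without either DSS library. The replicate block called 5084 genes and, beside the 4 members, Hspa5 (adjusted p = 0.0259); with only 2 pairs, the samples share only a number (same-numbered deviations correlated at 0.197, 0.160 and 0.409 in the 3 comparisons). Scaling by library size alone put the all-gene median log2 fold change at 0.33, against 0.10, and 71.2% of its calls were higher, against 52.4%.

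In DSS plus montmorillonite, DESeq2 called 200 genes against water and 76 against DSS where limma called 0; without DSS plus montmorillonite replicate 2 limma called 285 against DSS, so over the leave-one-out fits that count ran from 0 to 285. Reversed signs, all in members that did not pass, came in DSS against water for Dnajb9 with library size scaling (0.23), TMM (0.02) and edgeR (0.01), and in DSS plus montmorillonite against DSS for Ddit3 with library size scaling (-0.09). Leaving out 1 library, log2 fold changes ran in DSS against water from -0.29 to 0.50 for Herpud1 and from -0.20 to 0.18 for Dnajb9. In DSS plus montmorillonite against water they ran from -0.01 to 0.20 for Creld2, -0.05 to 0.31 for Atf4, -0.02 to 1.21 for Herpud1, -0.24 to 0.14 for Dnajb9, -0.06 to 0.39 for Hyou1 and -1.13 to 0.55 for Ern2. Against DSS they ran from -0.70 to 0.14 for Xbp1, -0.06 to 0.39 for Ddit3, -0.12 to 1.11 for Herpud1, -0.32 to 0.22 for Sdf2l1 and -0.09 to 0.0048 for Dnajb9. The cause was not tested. With 2 libraries a group, a p that misses the threshold does not show that levels were alike.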
